A study of Caenorhabditis elegans with 8 samples.

Results

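The genes described here encode neuropeptide precursors of Caenorhabditis elegans, a nematode. They comprise the flp genes, for FMRFamide-like peptides, and the nlp genes, for neuropeptide-like proteins. Members were the genes that a single-gene probe set names flp or nlp followed by a number, with nlp-12, nlp-27 to nlp-31 and nlp-34 left out. This gave 77 genes (25 flp and 52 nlp) of 17118 genes measured, each read by its probe set with the highest mean over 8 arrays. The rule reads names and mean level only, but it was set with earlier results of these data known. Among the genes it leaves out is nlp-12, which differed between the strains, as given below.

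The tested worms were ercc-1 mutants on the N2 background, which the labels call deficient in nucleotide excision repair (4 arrays), and the reference was wild type N2, the standard laboratory strain (4 arrays). Together with its partner, the ERCC-1 protein cleaves damaged DNA in that pathway. Both strains were grown as mixed-stage cultures on Escherichia coli HT115(DE3) carrying pL4440 for 3 to 4 days, and their total RNA was read on Affymetrix expression arrays for this species, 1 sample to an array. The labels give no allele, age or sex. Whether the replicates were grown apart is not stated either, and the p-values then cover only the spread among these arrays, which may be technical.

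A neuropeptide precursor is cut at basic residues by proprotein convertases, trimmed by a carboxypeptidase and often amidated at its end, and the mature peptides are stored in dense-core vesicles. Released peptides act on G protein-coupled receptors, often at a distance from the neuron that made them. In this worm such peptides modulate movement, egg laying, feeding, sleep-like states and the use of fat, and several come from tissues other than neurons. In whole-worm RNA, fewer cells of a type and less RNA per cell cannot be told apart.

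Values are the authors' expression values per probe set, read as log2. Median log2 values were 7.59, 7.52, 7.44 and 7.5 on mutant replicates 1 to 4, and between 7.39 and 7.44 on the wild-type arrays. On the first principal component over all probe sets, which held 35.6% of the variance, mutant replicate 1 lay at -35.9 and mutant replicate 4 at 24.6, with the other 6 arrays between -13.2 and 12.9. No background level is known. Of the 77 genes, 8 had a mean over all arrays below 6.42, the lowest 25% of all probe sets, called dim here (flp-21, flp-23, nlp-2, nlp-23, nlp-45, nlp-52, nlp-60 and nlp-90). A probe set ending in _x_at or _s_at, a type that may also bind other transcripts, read 21 of the 77.

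None of the 77 precursor genes passed the test between mutant and wild type. At an adjusted p under 0.05 in limma, 0 were higher and 0 lower in the mutant, beside 0.672% of all genes (91 higher, 0.532%, and 24 lower, 0.14%) and 0.665% of all probe sets. At an unadjusted p under 0.05 there were 3 of 77 (flp-10, flp-13 and nlp-39), beside 10.5% of all genes. Adjusted p ran from 0.259 to 0.995. The left-out nlp-12 was lower in the mutant (log2 difference -2.08, adjusted p = 0.000378), so the absence of calls does not extend to every gene of the nlp family.

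Mutant means nevertheless lay above wild-type means for most precursors by a small margin. The median log2 difference over the 77 was 0.135 (middle 50% of the genes 0.063 to 0.240), beside 0.03 over all genes, and the mutant mean was the higher one in 68 of 77, beside 59.4% of all genes. The median was 0.192 over the flp genes and 0.112 over the nlp genes. After each array was centred on its own median, the median over the 77 was 0.045 and 50 of 77 had the higher mean in the mutant, beside 32.6% of all genes. Centring lowered the difference of every gene by the same 0.09. The distance of the precursors from all genes was thus unchanged. Leaving out 1 mutant array moved the median by over 1.5 times, to 0.035 when replicate 1 was dropped, 0.208 when replicate 3 was dropped and 0.212 when replicate 4 was dropped. The 95% confidence intervals stayed below a difference of 1 on the log2 scale for 71 genes, and no lower bound was under -1. The genes whose interval reached 1 were flp-1, flp-8, flp-16, nlp-8, nlp-39 and nlp-49.

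**Figure D1:**
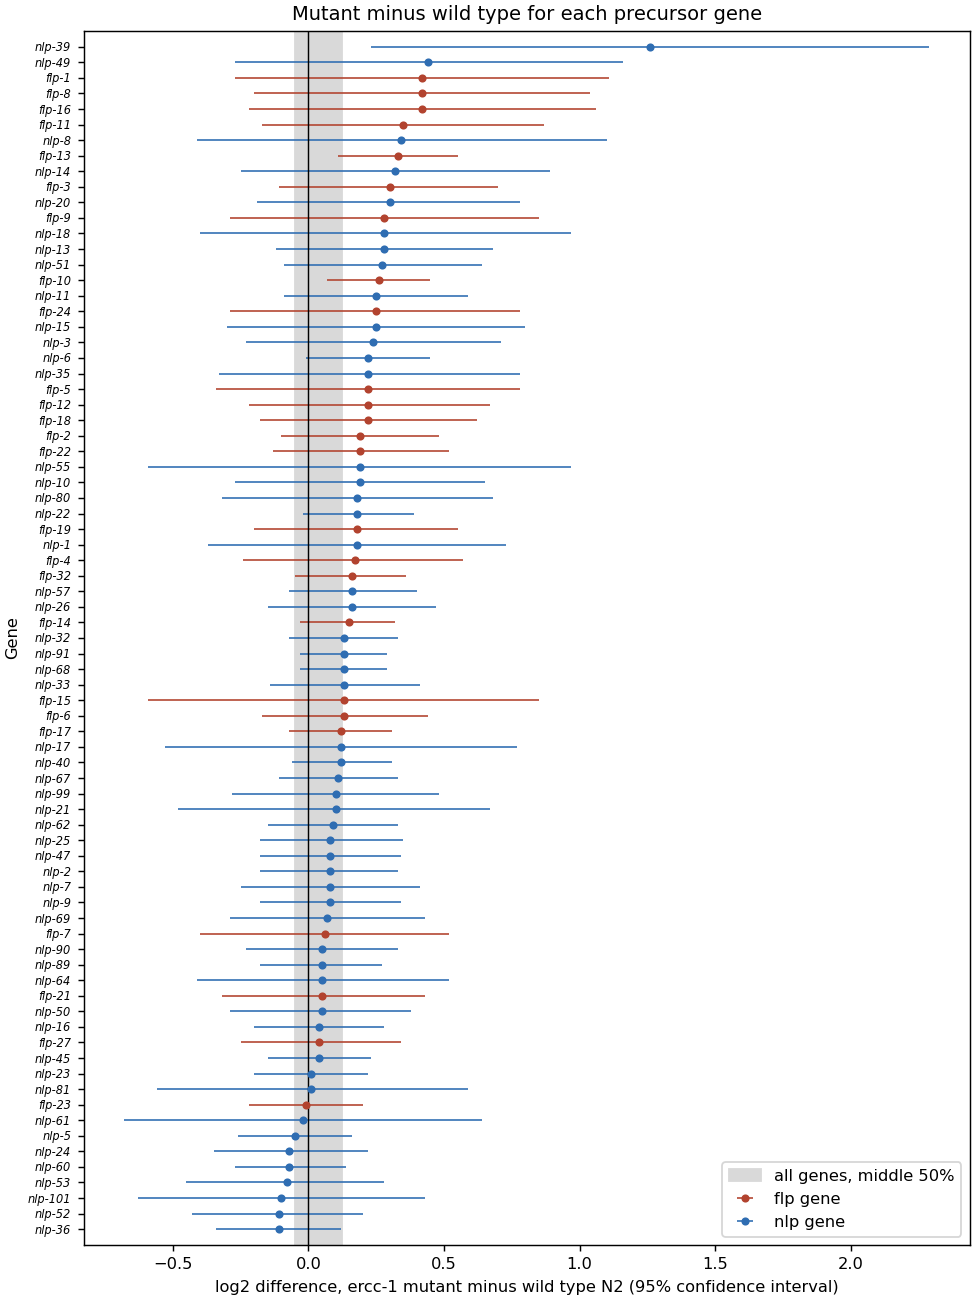
Log2 difference between the mean of 4 ercc-1 mutant arrays and the mean of 4 wild-type N2 arrays for each of the 77 precursor genes, with its 95% confidence interval from limma. The grey band holds the middle 50% of all genes. The points lie between -0.11 (nlp-36 and nlp-52) and 1.26 (nlp-39), and 3 intervals, those of nlp-39, flp-13 and flp-10, lie above 0.

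The smallest adjusted p belonged to flp-13, whose peptides are released by the ALA neuron and promote sleep after cellular stress. It read 7.31, 7.16, 7 and 6.9 on mutant replicates 1 to 4, against 6.88, 6.75, 6.68 and 6.75 on wild-type replicates 1 to 4. Every mutant value lay above every wild-type value, by 0.02 at the closest point. The mutant mean was 1.25-fold higher (log2 difference 0.33, SE 0.0979, adjusted p = 0.259 in limma). The exact two-sided permutation test over 70 assignments of the arrays gave p = 0.0286, the smallest p it can give. Any gene whose groups do not overlap gets this p, so it adds nothing to that separation. By the probe set used for each gene, flp-13 alone of the 77 had groups that did not overlap, with 0 in the lower direction, beside 5.01% of all genes higher and 1.87% lower. Leaving out any 1 array gave 1 to 3 such genes in the higher direction, for which no share of all genes was obtained. Groups with fewer arrays come apart more easily, so these counts do not compare with the 5.01%. After quantile normalization or median centring of all 8 arrays, the groups of flp-13 overlapped.

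The gene flp-10 encodes peptides that, with those of flp-17, inhibit egg laying through the receptor EGL-6. It read 8.24, 8.03, 8.16 and 7.93 in the mutant, against 7.84, 7.83, 7.93 and 7.72 in wild type. Mutant replicate 4 equalled wild-type replicate 3, the only point at which the groups met. The log2 difference was 0.26 (95% confidence interval 0.07 to 0.45, adjusted p = 0.326 in limma).

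The largest difference was that of nlp-39, and it was spread unevenly over the mutant arrays. It read 9.38, 8.4, 8.64 and 6.7 in the mutant, against 7.04, 6.94, 7.22 and 6.88 in wild type. Mutant replicates 1, 2 and 3 lay more than 1 above each wild-type array, while mutant replicate 4 was the lowest of all 8 arrays. The mean was 2.39-fold higher in the mutant (log2 difference 1.26, SE 0.459, 95% confidence interval 0.23 to 2.29, adjusted p = 0.383 in limma). Without mutant replicate 4 the difference was 1.787 and passed the test (adjusted p = 0.00488), so 1 array decided this call. The SD over the mutant arrays was 1.13, the highest of the 77, and over the wild-type arrays 0.149.

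**Figure D2:**
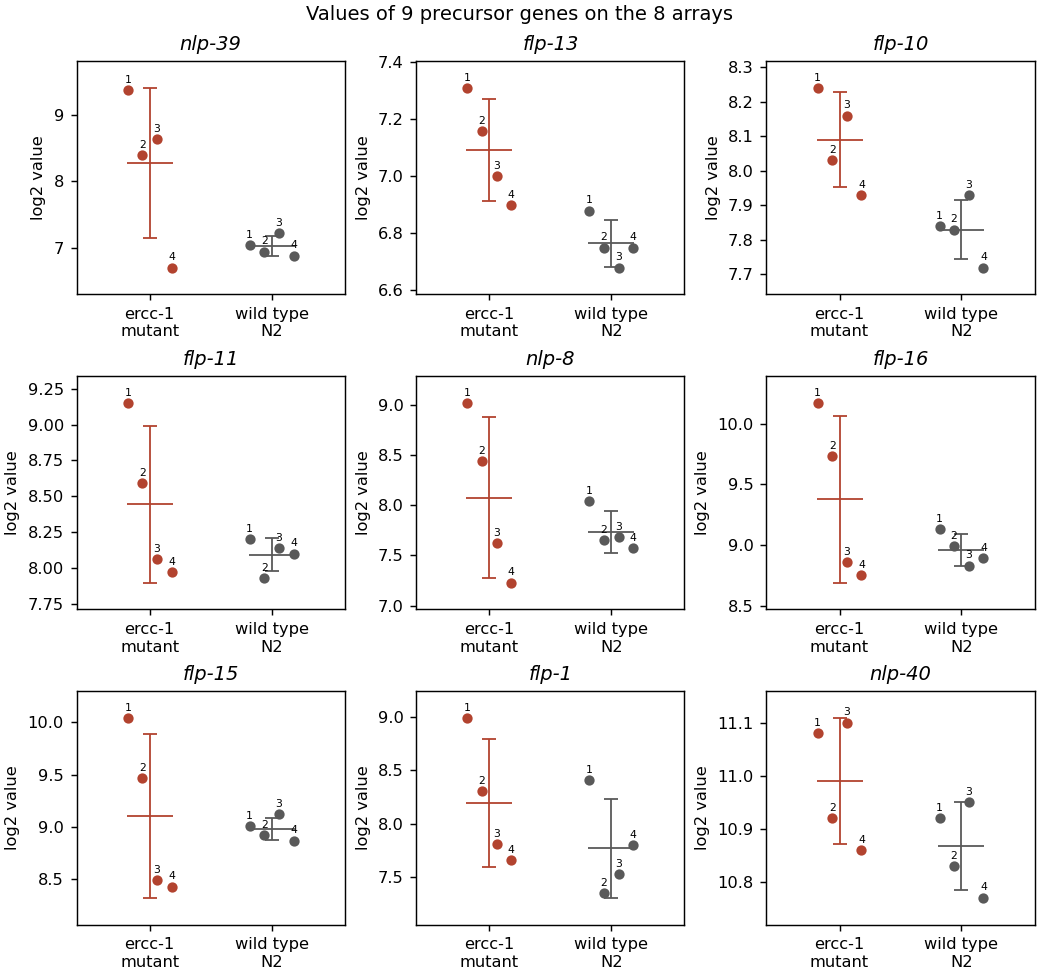
Log2 values of 9 precursor genes on the 4 ercc-1 mutant arrays (red) and the 4 wild-type N2 arrays (grey), numbered by replicate, with the mean and SD of each group; each panel has its own vertical axis, which does not start at 0. The groups are apart for flp-13 alone, and for flp-11, nlp-8, flp-16 and flp-15 mutant replicates 1 and 2 lie above all wild-type arrays while mutant replicates 3 and 4 do not.

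Of the 5 precursors of the sleep and quiescence list, which is a choice and not a full set, all had the higher mean in the mutant. So did 68 of all 77 precursors. None of the 5 passed, and their median log2 difference was 0.327. Without mutant replicate 1 the differences of flp-11, flp-24 and nlp-8 were 0.114, 0.019 and 0.028. Those of flp-13 and nlp-22 were then 0.255 and 0.172. The RIS neuron's sleep peptide gene flp-11 read 9.15, 8.59, 8.06 and 7.97 in the mutant, against 8.2, 7.93, 8.14 and 8.1 in wild type. Mutant replicates 1 and 2 were above all wild-type arrays, and mutant replicates 3 and 4 fell among them. Mutant replicates 1 and 2 were also above all wild-type arrays for flp-24 and nlp-8, which act beside flp-13 in the ALA neuron. For nlp-8 the values were 9.02, 8.44, 7.62 and 7.23 in the mutant, against 8.04, 7.65, 7.68 and 7.57 in wild type (log2 difference 0.34, adjusted p = 0.819), and mutant replicate 4 was the lowest of the 8 arrays. For flp-24 they were 9.8, 9.27, 8.74 and 8.65 in the mutant, against 8.99, 8.55, 9.05 and 8.88 in wild type (0.25, adjusted p = 0.812). In contrast nlp-22, which promotes the quiescence that accompanies larval moults, varied little in the mutant. It read 6.72, 6.55, 6.74 and 6.72 there, against 6.67, 6.32, 6.55 and 6.45 in wild type (0.18, adjusted p = 0.555).

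The 8 precursors of the movement and egg-laying list also had the higher mean in the mutant, with 0 called and a median log2 difference of 0.205. This did not hold under every setting, since flp-21 and nlp-7 turned to -0.035 and -0.012 after median centring and to -0.108 and -0.073 without mutant replicate 1. The gene flp-1, whose loss makes worms hyperactive, read 8.99, 8.31, 7.81 and 7.66 in the mutant, against 8.41, 7.35, 7.53 and 7.8 in wild type. Replicate 1 was the highest array of each strain, and the groups overlapped widely (log2 difference 0.42, 95% confidence interval -0.27 to 1.11). Its other probe sets gave 0.20 and 0.23. The genes flp-18 and flp-21 encode ligands of the receptor NPR-1, which governs feeding in groups. Their differences were 0.22 (adjusted p = 0.767) and 0.05 (adjusted p = 0.958), and flp-21 is one of the dim probe sets. The arousal peptide gene flp-2 read 0.19 above wild type, and its other probe set 0.27. Differences were 0.24 for nlp-3, which stimulates egg laying, 0.08 for nlp-7, which inhibits it, and 0.12 for flp-17.

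In the list of food, fat and gut-rhythm peptides 0 of 4 passed, with a median of 0.093. The intestine releases the NLP-40 peptide, which times the expulsion step of defecation. The nlp-40 transcript read 11.08, 10.92, 11.1 and 10.86 in the mutant, against 10.92, 10.83, 10.95 and 10.77 in wild type, with overlapping groups (log2 difference 0.12, 95% confidence interval -0.06 to 0.31). The gene flp-7, which promotes fat loss through NPR-22, read 8.55, 8.36, 7.61 and 7.64 in the mutant, against 8.04, 7.91, 8.07 and 7.89 in wild type. Its mutant arrays thus lay on either side of the narrow wild-type range, and the means differed by 0.06 (95% confidence interval -0.40 to 0.52), or -0.027 after median centring. The AWC olfactory neuron's gene nlp-1 split the same way, with 9.07, 8.5, 7.88 and 7.82 in the mutant, against 8.19, 8.06, 8.22 and 8.08 in wild type. The difference of nlp-24, which encodes opioid-like peptides, was -0.07 (adjusted p = 0.92).

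Some nlp genes near nlp-24 in number encode short glycine-rich peptides of the YGGW type, several of them made in the epidermis upon infection. The 5 kept here are nlp-24, nlp-25, nlp-26, nlp-32 and nlp-33, and 0 passed. Their differences ran from -0.07 to 0.16, with 0.08 for nlp-25, 0.16 for nlp-26, 0.13 for nlp-32 and 0.13 for nlp-33 (adjusted p from 0.72 to 0.92). For nlp-33, mutant replicates 1 and 2 lay above all wild-type arrays and mutant replicate 3 below all of them. For nlp-32, mutant replicate 4 was the highest array. Relative to wild type their mean level was 0.20, 0.10, -0.06 and 0.11 on mutant replicates 1 to 4, and between -0.10 and 0.13 on the wild-type arrays.

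Outside these lists, and after nlp-39, the differences above 0.4 were those of nlp-49, whose peptide acts on locomotion through the receptor SEB-3, flp-8 and flp-16. The nlp-49 transcript read 8.67, 8.12, 7.4 and 7.25 in the mutant, against 8, 7, 7.24 and 7.43 in wild type (log2 difference 0.44, adjusted p = 0.73). That of flp-16 read 10.17, 9.73, 8.86 and 8.75 in the mutant, against 9.13, 8.99, 8.83 and 8.89 in wild type (0.42, adjusted p = 0.708). For flp-8 the values were 8.05, 7.68, 6.96 and 6.91 in the mutant, against 7.53, 6.78, 6.7 and 6.9 in wild type. In all 3 mutant replicates 1 and 2 lay above every wild-type array, and wild-type replicate 1 was the highest of its group. A second flp-8 probe set read 0.10.

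Mutant means were the lower ones for 9 genes, by at most 0.11. Beside nlp-24, the largest such differences were -0.11 for nlp-36, -0.11 for nlp-52, -0.10 for nlp-101, -0.08 for nlp-53, -0.07 for nlp-60, -0.05 for nlp-5 and -0.02 for nlp-61, all with adjusted p of at least 0.806. The level of nlp-36 was 10.97, 10.89, 10.62 and 10.92 in the mutant, against 10.92, 10.87, 11.18 and 10.87 in wild type. Among genes with further probe sets, flp-15 and nlp-99 had one of opposite sign. For flp-15 these read 0.13, -0.03 and 0.01, and for nlp-99 0.10 and -0.05, all with 95% confidence intervals that include 0. Other pairs of probe sets shared a sign but not a size, as seen after their values were known. The second nlp-16 probe set read 7.17, 6.93, 6.86 and 6.82 in the mutant, against 6.8, 6.49, 6.51 and 6.74 in wild type. Its groups were apart, with a log2 difference of 0.31 (adjusted p = 0.337), against 0.04 for the nlp-16 probe set with the higher mean, whose groups overlapped. For nlp-9 the second probe set read 0.36 (adjusted p = 0.529) and the first 0.08.

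The precursors varied more among the mutant arrays than among the wild-type arrays. The SD of a gene over the 4 mutant arrays had a median of 0.312 for the 77, against 0.147 over the 4 wild-type arrays, beside 0.151 and 0.111 over all genes. The mutant SD was the larger one in 64 of 77 genes, beside 67% of all genes. The mutant arrays spanned at least 1 on the log2 scale for 24 precursors, beside 4.43% of all genes, and the wild-type arrays for 2 (flp-1 and nlp-49), beside 0.502%. The largest spreads after nlp-39 belonged to nlp-55 and nlp-8, with mutant SDs of 0.837 and 0.806. For nlp-55 the values were 9.82, 9.14, 8.17 and 8.06 in the mutant, against 8.78, 8.41, 8.77 and 8.48 in wild type.

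The variation took one shape in most of these genes. Mutant replicate 1 was the highest of the 8 arrays in 57 of 77 genes, beside 24.9% of all genes, and lay above all wild-type arrays in 65, beside 35%. Some other gene lists shared this, as given below. Mutant replicate 2 lay above all wild-type arrays in 46 genes, beside 29.1%. Mutant replicate 3 lay above them in 10, beside 24.4%, and below all of them in 24, beside 25%. Mutant replicates 1 and 2 lay below all wild-type arrays in 0 genes, beside 19.5% and 15.1%. Mutant replicate 4 lay above them in 15, beside 35.5%, and below all of them in 27, beside 22.8%. Mutant replicates 1 and 2 both exceeded mutant replicates 3 and 4 in 50 genes (64.9%), beside 25.3% of all genes. In 33 genes the mutant arrays lay on either side of the wild-type range (42.9%), beside 28.7% of all genes. None of these shares was tested, since genes read on the same arrays share those arrays' differences.

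In flp-15 and nlp-61 the mutant arrays split widely around means close to those of wild type. The level of flp-15 was 10.04, 9.47, 8.49 and 8.43 in the mutant, against 9.01, 8.92, 9.12 and 8.87 in wild type. That of nlp-61 was 8.49, 8, 7.17 and 6.97 in the mutant, against 7.8, 7.56, 7.8 and 7.55 in wild type. In each, mutant replicates 1 and 2 were above and mutant replicates 3 and 4 below every wild-type array, and the mean differences were 0.13 (95% confidence interval -0.59 to 0.85) and -0.02 (-0.68 to 0.64).

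Some precursors varied little over the mutant arrays. These arrays spanned less than 0.3 in 15 genes (19.5%), beside 41.7% of all genes. Among them flp-14 read 7.83, 7.79, 7.81 and 7.91 in the mutant, against 7.74, 7.52, 7.81 and 7.68 in wild type. The gene flp-17, which acts in the carbon dioxide-sensing BAG neurons, read 8.03, 7.93, 8.1 and 7.98 in the mutant, against 7.92, 7.68, 7.99 and 7.97 in wild type. The others with such a narrow span were flp-23, flp-27, flp-32, nlp-2, nlp-22, nlp-23, nlp-32, nlp-40, nlp-45, nlp-57, nlp-60, nlp-68 and nlp-91.

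**Figure D3:**
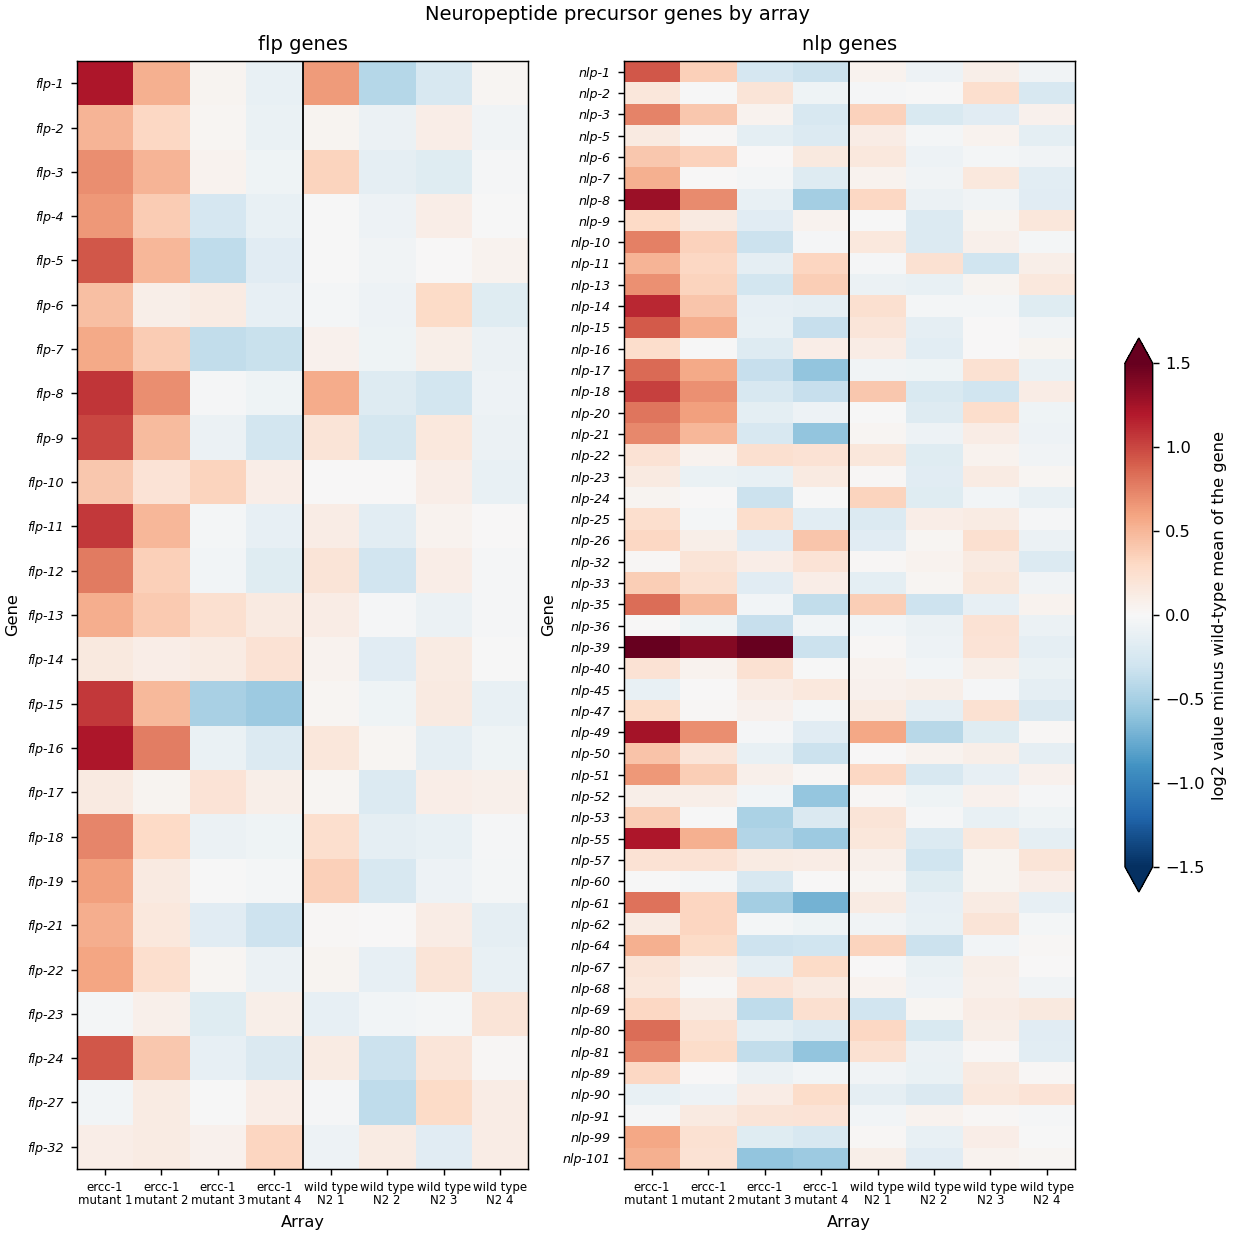
Log2 value of each precursor gene on each array minus the gene's mean over the 4 wild-type N2 arrays, for 25 flp and 52 nlp genes in the order of their numbers. The colour scale is limited, and nlp-39 exceeds it. Mutant replicates 1 and 2 are red for most genes, and mutant replicates 3 and 4 are near white or blue.

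By chromosome, 28 of the 77 genes lie on X (36.4%), where 13.7% of all measured genes lie, and 10 on V (13%), where 25.2% lie. The median log2 difference ran from 0.11 on V to 0.222 on I, with 0.171 on X. These positions come from the RefSeq table for WBcel235, and no share was tested.

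Of 12 genes for enzymes and helpers of peptide processing and breakdown, 9 had their highest value on mutant replicate 1, and 0 passed (7 above wild type, 5 below, median 0.089). The convertase gene egl-3 read 10.51, 9.88, 9 and 9.01 in the mutant, against 9.52, 9.05, 9.11 and 9.15 in wild type (log2 difference 0.39, 95% confidence interval -0.30 to 1.09, adjusted p = 0.761). The carboxypeptidase gene egl-21 read 10.51, 10, 9.3 and 9.3 in the mutant, against 9.66, 9.44, 9.34 and 9.55 in wild type. Levels of sbt-1, the 7B2 homologue that helps EGL-3 mature, were 10.66, 10.12, 9.5 and 9.54 in the mutant, against 9.85, 9.53, 9.78 and 9.77 in wild type. In these 3 genes mutant replicates 1 and 2 lay above every wild-type array and mutant replicates 3 and 4 near or below the lowest. The amidation genes pgal-1 and pghm-1 differed by 0.30 and 0.29 (adjusted p = 0.782 and 0.82). The genes egl-21, sbt-1 and pghm-1 were picked after their values were seen.

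Dense-core vesicle genes varied less. Of 11 genes 0 passed, 9 had the higher mean in the mutant, and the median was 0.055. The smallest p belonged to ric-19, which acts in vesicle maturation, and pkc-1, a protein kinase C that promotes peptide release, with differences of 0.21 and 0.19 (adjusted p = 0.411 and 0.445). Of 5 other precursor genes 0 passed, with pdf-2 and snet-1 at 0.14 and 0.17 (adjusted p = 0.869 and 0.903).

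Among 99 neuropeptide receptor genes 1 rose and 0 fell, beside 0.532% and 0.14% of all genes, and the median was 0.050. The gene that rose was npr-41, which read 6.59, 6.78, 6.73 and 6.67 in the mutant, against 6.18, 6.24, 6.24 and 6.25 in wild type. The groups were apart and the log2 difference was 0.46 (adjusted p = 0.0225). Leaving out mutant replicate 2 gave an adjusted p of 0.0656, and leaving out 1 wild-type array gave 0.0799 to 0.102. Median centring (0.113) and the replicate block (0.059) also ended the call. A total of 39 receptor genes were read by dim probe sets.

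The receptor gene with the next smallest p was egl-6, the receptor of FLP-10 and FLP-17 peptides. It read 7.28, 7.38, 7.28 and 7.34 in the mutant, against 7.68, 7.72, 7.56 and 7.51 in wild type. All 4 mutant values lay below all wild-type values (log2 difference -0.30, 95% confidence interval -0.46 to -0.13), but the gene did not pass (adjusted p = 0.15). Both of its ligand genes had the higher mean in the mutant, flp-10 by 0.26 and flp-17 by 0.12, neither past the test. Other receptors of precursors described above, picked after their values were seen, were dmsr-1 for FLP-13 (0.21, adjusted p = 0.516), npr-1 for FLP-18 and FLP-21 (-0.11, adjusted p = 0.775, a dim probe set) and aex-2 for NLP-40 (0.07, adjusted p = 0.856). The mean levels of the receptor list relative to wild type were 0.09, 0.06, -0.01 and 0.05 on mutant replicates 1 to 4.

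Other gene lists were set beside the precursors on the same arrays. Relative to wild type, the 77 precursors averaged 0.55, 0.27, -0.07 and -0.10 on mutant replicates 1 to 4, and between -0.12 and 0.10 on the wild-type arrays. The flp genes averaged 0.64, 0.33, -0.04 and -0.08, and the nlp genes 0.51, 0.25, -0.09 and -0.11 on the same mutant arrays. All genes averaged 0.09, 0.05, 0 and 0.05. After median centring the precursors still averaged 0.38, 0.18, -0.09 and -0.18, beside -0.07, -0.04, -0.02 and -0.02 for all genes.

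General neuronal genes, averaged over each list, moved in the same order by smaller amounts in the values as deposited. The 15 pan-neuronal genes averaged 0.35, 0.20, -0.07 and -0.10 on mutant replicates 1 to 4, and 0.19, 0.10, -0.09 and -0.18 after median centring. Of these 0 passed, 12 had the higher mean in the mutant and 3 the lower, and the median was 0.097. Mutant replicate 1 was the highest array in 10 of the 15. The smallest p belonged to unc-18 and unc-64, which act in vesicle fusion, at 0.23 and 0.32 (adjusted p = 0.265 and 0.404), both with groups apart. Not every gene kept the order, as unc-18 read 9.03, 9.04, 8.91 and 9.01 on mutant replicates 1 to 4. The 11 neurotransmitter identity genes averaged 0.14, 0.08, -0.03 and -0.05, beside 0.09, 0.05, 0 and 0.05 for all genes. After median centring they averaged -0.02, -0.01, -0.05 and -0.13. Of the 11 genes 0 passed, 6 had the higher mean in the mutant and 5 the lower, and the median was 0.023. The smallest p belonged to cat-2, for dopamine synthesis, and unc-47, the GABA transporter of vesicles, at 0.21 and 0.17.

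Markers of other tissues also varied over the mutant arrays, apart from those of oocyte and eggshell. Mutant replicate 1 was the highest of the 8 arrays in 6 of 7 body wall muscle genes and 7 of 8 intestine genes. It was the highest in 1 of 7 epidermis and cuticle genes and 0 of 6 oocyte and eggshell genes. The 7 body wall muscle genes averaged 0.75, 0.25, -0.17 and 0.28 on mutant replicates 1 to 4, with unc-54, the major myosin heavy chain, at 0.51 and unc-27, a troponin I, at 0.21 (adjusted p = 0.46 and 0.438, 0 of 7 called). The 8 intestine genes averaged 0.33, 0.12, 0.09 and -0.01, with asp-1 and cpr-1 at 0.15 and 0.49 and 0 called. The 7 epidermis and cuticle genes averaged 0.13, 0.14, -0.17 and 0.30, with dpy-7 and rol-6 at 0.22 and 0.09 and 0 called. The 6 oocyte and eggshell genes averaged between -0.08 and 0.06 on the mutant arrays, within their wild-type range of -0.17 to 0.07. Among them cbd-1 and rme-2 were at -0.05 and -0.04, and 0 were called.

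Male and sperm genes had another order. The 11 male neuron genes averaged 0.08, 0.14, 0.13 and 0.24 on mutant replicates 1 to 4, and between -0.05 and 0.10 on the wild-type arrays. Their median difference was 0.077, with 9 means higher and 2 lower in the mutant. Of the 11, cwp-2 rose (0.68, adjusted p = 0.029, and 0.0876 to 0.126 when 1 wild-type array was left out), and cil-7 read 0.42 (adjusted p = 0.18). Dim probe sets read 6 of the 11, cwp-2 and cil-7 among them. The 23 major sperm protein genes averaged 0.91, 0.87, 0.83 and 1.67. A total of 18 rose, beside 0.532% of all genes, among them msp-49, msp-50, msp-53 and msp-77 (adjusted p from 0.0189 to 0.0277). These 4 genes are read by _x_at probe sets, which may also bind other transcripts, so their calls may not be separate. Without any 1 of the wild-type replicates the adjusted p of these 4 genes was between 0.0642 and 0.123. Mutant replicate 4 was the highest array for sperm genes. For the precursors it was the lowest of the 4 mutant arrays, at -0.10 against -0.07 on mutant replicate 3. Both values lie within the precursors' wild-type range of -0.12 to 0.10.

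The mean log2 level of the lists ran from 7.58 to 8.23 over the mutant arrays and from 7.56 to 7.78 over the wild-type arrays for the precursors. It ran from 7.82 to 8.28 and from 7.88 to 8.03 for pan-neuronal genes, and from 10.21 to 11.13 and from 10.21 to 10.55 for body wall muscle genes. For major sperm protein genes it ran from 11.58 to 12.42 and from 10.61 to 10.86. No member of these lists was listed at 0 on any array. The part of tissue or stage make-up, or of differences between arrays, in the precursors' values was not tested.

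**Figure D4:**
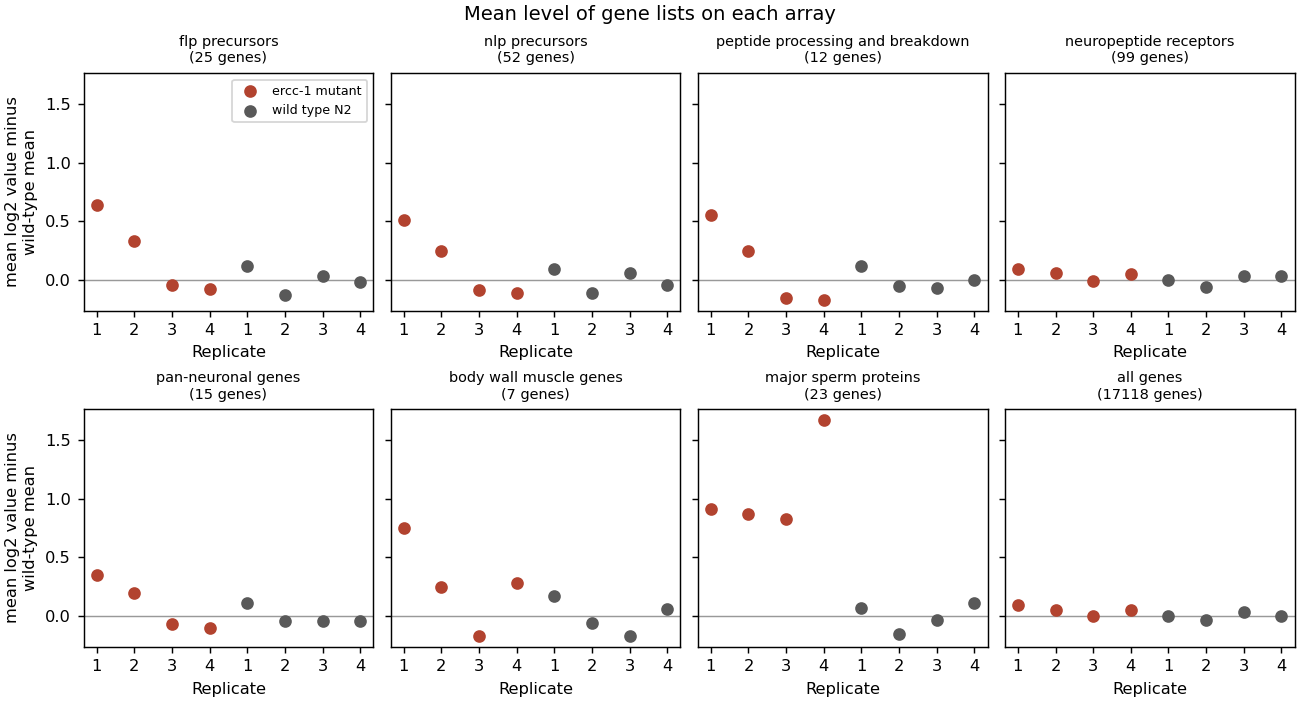
Mean over the genes of each list of the log2 value minus the gene's wild-type mean, for 4 ercc-1 mutant arrays (red, left) and 4 wild-type N2 arrays (grey, right), numbered by replicate. The precursors, processing enzymes and pan-neuronal genes are highest on mutant replicates 1 and 2 and at or below wild type on mutant replicates 3 and 4, while the major sperm protein genes are above wild type on all 4 mutant arrays.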

How the data were processed

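Total RNA of mixed-stage worms was extracted with TRIZOL and labelled with biotin, per the labels' protocols. The authors deposited 1 table of values, read here as log2 expression per probe set because they run from 0 to 14.38. The log base is not stated. Affymetrix Expression Console 1.1 is named in the submitters' processing notes. How it summarised and normalized the probes is not given in the sources used here. The values were used as deposited.

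The platform annotation gave gene names, with 20766 probe sets paired with 1 gene. All 77 member symbols matched the RefSeq table (WBcel235) by gene ID. Differences, mutant minus wild type, were fitted over 22548 probe sets using R 4.3.3 and limma 3.58.1 (functions lmFit and eBayes, 4 against 4 arrays, two-sided, Benjamini-Hochberg adjustment over all probe sets) and called at an adjusted p under 0.05. Counts over genes take 1 probe set for each gene. The 16 gene lists are described by counts and medians, and 2 of their names (ntc-1 and trh-1) matched no gene.

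Members and lists were chosen with earlier results of these data known. Named are genes past the threshold, the 8 largest differences in each direction, all members of the 4 role lists, the 2 genes of smallest p in each other list with up to 4 called, genes whose probe sets differ in sign, and the 3 largest mutant SDs. Any other gene was named after its values were seen. The planned description of precursor sequences was not run, since no protein sequences were used here. In simulated data of this design over 22548 probe sets the fit found 46.2% of changes of 0.5 on the log2 scale. It found 91.6% of changes of 1 and 97.9% of changes of 2. No such share was obtained for the 77 precursors alone. Their median SD over the mutant arrays was 0.312, beside 0.151 for all genes, and nlp-39 did not pass at a difference of 1.26. These shares therefore do not tell how often a change in a precursor would be found. The number of arrays limits the precision.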

Additional observations from a re-analysis of the deposited data

Results flagged for a closer look

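In 5 of 154 combinations of gene and strain, 1 array lay far from the other 3 of its group, by a gap whose share of the group's range passed Dixon's 95% critical value for 4 samples. Chance gives about 1 in 20, or 7.7. In the mutant, nlp-22 read 6.55 on replicate 2 (gap 0.895 of the range), nlp-24 read 6.45 on replicate 3 (0.889) and nlp-60 read 5.55 on replicate 3 (0.88). In wild type, nlp-17 read 10.62 on replicate 3 (0.848) and nlp-36 read 11.18 on replicate 3 (0.839).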

How the results depend on the processing

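No precursor (0) was called after quantile normalization or median centring, with dim or with _x_at and _s_at probe sets removed, under the replicate block or a trended robust variance, or on the mean over a gene's probe sets. Array weights called 5 of the 77 precursors higher (flp-13, flp-16, nlp-6, nlp-20 and nlp-39) and 0 lower. They called 1423 of 22548 probe sets in both directions together, a similar share. In that fit 1 array, mutant replicate 2, was weighted 5.046. Leaving out 1 array gave 0 to 1 precursors called higher, the 1 being nlp-39 without mutant replicate 4, and 0 lower. It gave 29 to 268 probe sets called, against 150 with all arrays, and 46 were called without _x_at and _s_at probe sets. The median log2 difference over precursors was 0.077 with quantile normalization, 0.045 with median centring and 0.248 with array weights, and between 0.035 and 0.212 when 1 array was left out. Leaving out mutant replicates 1 and 4 together, chosen after seeing the data, gave a median of 0.095, 1 call (nlp-39) and 4 genes with groups apart (flp-10, flp-13, nlp-39 and nlp-91). Genes with groups apart and higher in the mutant numbered 0 with quantile normalization and 0 with median centring, where 1 gene, nlp-36, was apart and lower. They numbered 1 to 3 when 1 array was left out, and 0 to 1 were lower (nlp-60 without wild-type replicate 2). No share of all genes was obtained beside these counts, and groups with fewer arrays come apart more easily.

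The replicate number as a block gave 125 probe sets called, 0 precursors, and adjusted p of 0.183 for flp-13. The call of npr-41 ended (0.059), as did that of cwp-2 (0.0692). The numbers do not pair the arrays by the labels. Correlations of same-numbered arrays' deviations were 0.473, 0.014, 0.04 and 0.201. Of the mutant arrays only replicate 1 correlated best with its own number. Mutant replicates 2, 3 and 4 correlated best with wild-type replicates 1 (0.075), 2 (0.118) and 3 (0.252).

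With quantile normalization flp-7 read -0.039. With median centring flp-7 read -0.027, flp-21 -0.035, nlp-7 -0.012, nlp-25 -0.005 and aex-2 -0.015. With array weights nlp-52 read 0.057, nlp-101 0.177, nlp-24 0.025, nlp-5 0.032 and nlp-61 0.302. Without _x_at and _s_at probe sets cbd-1 read 0.038. Without mutant replicates 1 and 4 nlp-52 read 0.023, flp-21 -0.01, nlp-7 -0.012 and nlp-26 -0.042. When 1 array was left out, these genes had values of either sign: nlp-52 from -0.178 to 0.042, nlp-101 from -0.308 to 0.069, nlp-53 from -0.233 to 0.047, nlp-24 from -0.128 to 0.042, nlp-5 from -0.112 to 0.002, nlp-61 from -0.298 to 0.209, flp-21 from -0.108 to 0.175, nlp-7 from -0.073 to 0.167, flp-7 from -0.108 to 0.206, nlp-1 from -0.071 to 0.346, flp-15 from -0.183 to 0.353, nlp-99 from -0.061 to 0.212, nlp-55 from -0.153 to 0.433, pdf-2 from -0.018 to 0.272, snet-1 from -0.051 to 0.366 and sbt-1 from -0.013 to 0.374. The cause was not tested.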
